A study of Mus musculus with 3 samples.

Results

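miR-103-3p and miR-107-3p are mature miRNAs cut from hairpins that lie in introns of the Pank genes, which encode pantothenate kinases, the enzymes that start coenzyme A synthesis. They were taken by name from the mature miRNAs of the deposited tables, 2 of 1915 entries, and compared with each other in every library. Both miRNAs are known as regulators of metabolism: in mouse liver and fat they lower insulin sensitivity, in part through caveolin-1, and in human breast cancer cells they repress Dicer, the enzyme that matures most miRNAs. A miRNA finds its targets mainly through its seed, bases 2 to 8, so miRNAs with the same seed are expected to share most targets.

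The study sequenced small RNA from 3 sources, 1 library each. B16 exosomes are vesicles shed by B16, a mouse melanoma line given as strain C57BL/6J. JB6 exosomes are vesicles of JB6, a mouse skin line given as strain BALB/c and as normal. B16 cells are the parent cells of the B16 exosomes. Each line stands for its group alone, and line, strain and disease state go together between B16 and JB6. No genetic change or drug treatment is given for any group, and no JB6 cell library was analysed here.

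Summed over all entries, the libraries held 45677 miRNA reads in B16 exosomes, 4495956 in JB6 exosomes and 7925726 in B16 cells. Entries with equal counts, such as miR-199a-3p and miR-199b-3p with 11717 reads each in B16 cells, both enter these sums in full. A read counted for more than 1 entry is therefore held more than once in the totals used for RPM. The smallest listed count was 10, so a listed 0 stands for at most 9 reads, which is 197 RPM (reads per 1000000 miRNA reads) in B16 exosomes, 2.002 RPM in JB6 exosomes and 1.14 RPM in B16 cells. The melanocyte miRNA miR-211-5p had 83 reads in B16 exosomes, a listed 0 in JB6 exosomes and 21080 reads in B16 cells, miR-204-5p had a listed 0 in B16 exosomes, 14 reads in JB6 exosomes and 60 in B16 cells, and miR-137-3p was at a listed 0 in all 3. The 3 skin epithelial markers were at a listed 0 in B16 exosomes. JB6 exosomes listed only miR-203-3p, at 13 reads, and B16 cells listed miR-203-3p at 47 and miR-200c-3p at 64 reads, so the summed level was 2.89 RPM in JB6 exosomes and 14.005 RPM in B16 cells. The liver miRNA miR-122-5p had 24 reads in B16 exosomes, 1129522 in JB6 exosomes and 421 in B16 cells. The 2 red cell markers were at a listed 0 in B16 exosomes and summed to 7473 RPM in JB6 exosomes and 20.9 RPM in B16 cells. In JB6 exosomes miR-486a-5p gave 7339 RPM of that sum and miR-451a 135 RPM. The 3 muscle markers were at a listed 0 in B16 exosomes and summed to 3707 RPM in JB6 exosomes and 1.39 RPM in B16 cells. Nearly all of the JB6 exosome sum was miR-206-3p, at 3696 RPM, with miR-1a-3p at 4.67 RPM and miR-133a-3p at 5.56 RPM. Whether the cell types that these markers name contributed to the libraries or to the results below was not tested. Single libraries give no spread between replicates, so no difference was tested against such a spread, and the exact 95% intervals in parentheses account for counting error only.

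The mature sequences, from RefSeq on GRCm38.p6, are shown because a single base separates the members. The capitals mark the seed and base 22.
miR-103-3p: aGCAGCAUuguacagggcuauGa
miR-107-3p: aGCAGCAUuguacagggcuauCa
Counted from 1 at the 5′ end of miR-103-3p, the difference to miR-107-3p is G22C, and the 21 bases before it are identical. A read that ends before base 22 therefore cannot be assigned to either of them by its sequence. The sources used here do not give how the authors counted such reads, so the split between the members, and their sum if such reads were left out or counted for both, are uncertain to that extent. Some entries held equal counts in every library, such as miR-199a-3p and miR-199b-3p. Each had 72 reads in B16 exosomes, 9276 in JB6 exosomes and 11717 in B16 cells. Such counts arise when reads that match both entries are counted in full for each. Whether reads that end before base 22 were counted in this way was not tested. Among 1623 entries of the tables with a RefSeq mature sequence, these were the only 2 with this seed, so no other matched entry adds to the reads of this seed.

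The hairpins, given in the next lines with the mature 3′ arm in capitals, show that miR-103-3p has a pair of genomic sources and miR-107-3p a single one.
Mir103-1: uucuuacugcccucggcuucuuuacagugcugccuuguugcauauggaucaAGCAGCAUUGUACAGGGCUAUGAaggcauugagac
Mir103-2: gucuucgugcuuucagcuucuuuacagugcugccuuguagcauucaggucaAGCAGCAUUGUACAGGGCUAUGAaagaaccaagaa
Mir107: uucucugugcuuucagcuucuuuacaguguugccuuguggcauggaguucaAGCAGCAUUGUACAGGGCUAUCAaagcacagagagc
Mir103-1 lies at chr11:35782396-35782481 on the plus strand in Pank3, Mir103-2 at chr2:131288052-131288137 on the plus strand in Pank2, and Mir107 at chr19:34820687-34820773 on the minus strand in Pank1. In the GENCODE annotation of GRCm38 each hairpin lay in intron 5 of the longest transcript of its host, which has 7 exons, on the strand of the host, and overlapped 0 annotated host exons. The nearest upstream exon ended 688 bases before Mir103-1, 454 bases before Mir103-2 and 326 bases before Mir107. The introns were 1740, 5801 and 7282 bases long. Outside the mature arms the hairpins differ more: identity over the whole hairpin was 80.2% between Mir103-1 and Mir103-2, 83.9% between Mir103-2 and Mir107, and 80.5% between Mir103-1 and Mir107. The Mir103-2 hairpin was thus no closer to its sister gene than to Mir107. In predicted folds the free energy was -35.8 kcal per mol for Mir103-1, -31.8 for Mir103-2 and -41.2 for Mir107, and 20, 20 and 19 of the 23 bases of the mature arm were paired.

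miR-103-3p, the more abundant member in every library, had 334 reads in B16 exosomes, 136 in JB6 exosomes and 40485 in B16 cells. These counts equal 7312 RPM in B16 exosomes (6551 to 8137), 30.2 RPM in JB6 exosomes (25.4 to 35.8) and 5108 RPM in B16 cells (5059 to 5158). It ranked 25 of 149 listed miRNAs in B16 exosomes, 182 of 389 in JB6 exosomes and 31 of 559 in B16 cells. Both B16 libraries were high and the JB6 exosome library was low, and the counting interval of JB6 exosomes overlapped neither of theirs. Fewer vesicles or cells that hold a miRNA and less of it in each cannot be told apart in such libraries.

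miR-107-3p had 23 reads in B16 exosomes, 18 in JB6 exosomes and 3165 in B16 cells. Its level was 503.5 RPM in B16 exosomes (319 to 755), 4.004 RPM in JB6 exosomes (2.37 to 6.33) and 399 RPM in B16 cells (386 to 413). The order of the libraries was that of miR-103-3p, but its exosome counts lay close to the limit of 9 reads, and its intervals in B16 exosomes and B16 cells overlapped. It ranked 113 of 149 in B16 exosomes, 324 of 389 in JB6 exosomes and 120 of 559 in B16 cells. Together the members took 0.782% of miRNA reads in B16 exosomes (0.703 to 0.867), 0.00343% in JB6 exosomes (0.00291 to 0.00401) and 0.551% in B16 cells (0.546 to 0.556).

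**Figure D1:**
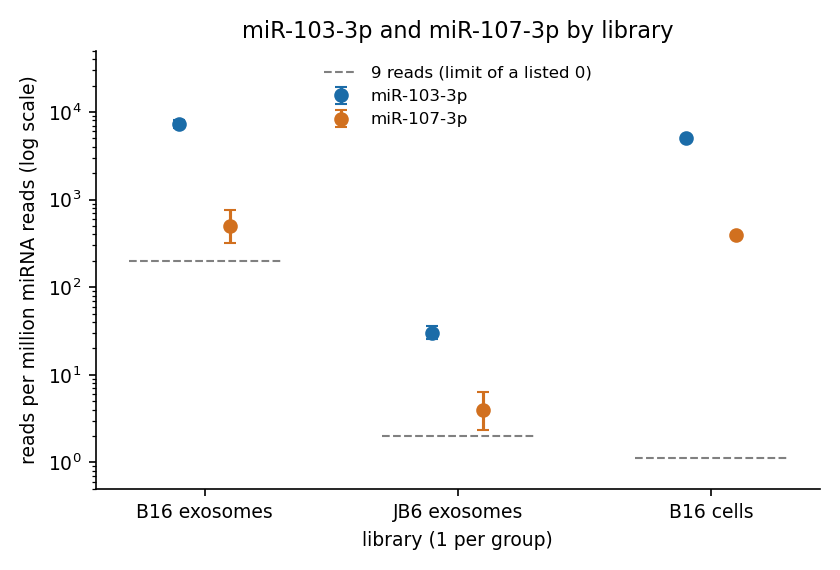
RPM, as reads per 1000000 miRNA reads (log axis), of miR-103-3p and miR-107-3p in each library, with exact 95% intervals for counting error, and the level of 9 reads as a dashed line. Both miRNAs are lowest in JB6 exosomes, at 30.2 and 4.004 RPM, where miR-107-3p lies near the dashed line.

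The balance of the members within a library does not depend on any total, so it was compared first. There were 14.5 reads of miR-103-3p per read of miR-107-3p in B16 exosomes (9.51 to 23.2), 7.56 in JB6 exosomes (4.60 to 13.1) and 12.8 in B16 cells (12.3 to 13.3). miR-107-3p thus made up 6.44% of the pair in B16 exosomes (4.13 to 9.51), 11.7% in JB6 exosomes (7.08 to 17.8) and 7.25% in B16 cells (7.01 to 7.50). miR-103-3p predominated in all 3 libraries.

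Between libraries, the balance in B16 exosomes was 1.14 times that in B16 cells (0.742 to 1.82). At the balance of the cells, 25.9 of the 357 exosome reads of the pair would have been miR-107-3p, and 23 were counted. The balance in B16 exosomes was 1.92 times that in JB6 exosomes (0.943 to 3.85), and the balance in JB6 exosomes was 0.591 times that in B16 cells (0.359 to 1.03). At the balance of B16 cells, the 154 reads of the pair in JB6 exosomes would have held 11.2 of miR-107-3p, where 18 were counted. All 3 intervals include 1, so a change of balance was not detectable at this depth, and a shift of up to 2.78-fold towards miR-107-3p in JB6 exosomes relative to B16 cells remained within the interval. That limit is set by the few reads of miR-107-3p in the exosome libraries.

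**Figure D2:**
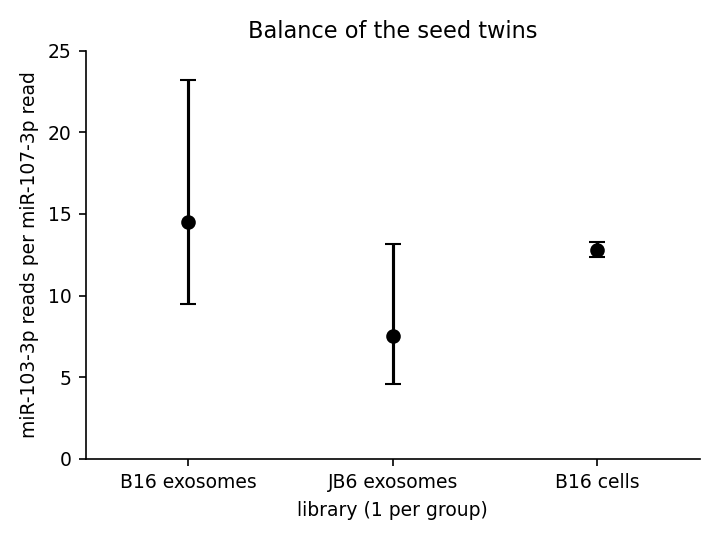
Reads of miR-103-3p per read of miR-107-3p in each library, with exact 95% intervals for counting error. The point of JB6 exosomes is the lowest, at 7.56, and its interval overlaps those of B16 exosomes (14.5) and B16 cells (12.8).

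Vesicles of the melanoma line were compared with their parent cells to ask how the members are represented in each. The share of miR-103-3p in B16 exosomes was 1.43 times that in B16 cells (1.28 to 1.59), and the share of miR-107-3p was 1.26 times (0.798 to 1.90). A miRNA with 30 or more reads in the libraries together was called higher or lower when its shares differed by 2-fold or more and 1 lay outside the interval. By this rule 0 of 2 members were called, where 16.4% of the 422 miRNAs with enough reads were. Among the 144 of these listed in both libraries, miR-103-3p ranked 47 and miR-107-3p ranked 55 from the highest ratio. The direction rests on the scaling: TMM factors gave ratios of 0.706 for miR-103-3p and 0.622 for miR-107-3p, and the authors' totals gave 0.0849 and 0.0748, which would call both lower. Over all miRNAs, 36 were higher and 33 lower, against 16 and 93 with TMM and 9 and 257 under the authors' totals.

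The exosomes of the melanoma and of the normal skin line were then compared with each other. Both members were higher in B16 exosomes. The share of miR-103-3p was 242-fold higher (197 to 297), with 334 reads in B16 exosomes against 136 in JB6 exosomes, although the JB6 library held far more reads in all. The share of miR-107-3p was 126-fold higher (64.9 to 247), with 23 reads in B16 exosomes against 18 in JB6 exosomes. The members were 2 of 2 called higher, where 31.3% of the 300 miRNAs with enough reads were. Among the 131 of these listed in both libraries, miR-103-3p had the third highest ratio, rank 3, and miR-107-3p ranked 12. The sizes moved with the scaling and the direction did not: miR-103-3p was 46.8-fold higher with TMM, 37.1-fold with DESeq2 size factors and 16.3-fold under the authors' totals, and miR-107-3p was 24.4-fold, 19.3-fold and 8.48-fold higher. The authors' total was 847694 reads in B16 exosomes, of which the listed miRNA counts summed to 45677. In JB6 exosomes it was 5626936, beside 4495956 miRNA reads, so miRNA was a far smaller part of the B16 exosome total. Over all miRNAs, 94 were higher and 35 lower, against 61 and 97 with TMM, 57 and 109 by DESeq2 size factors and 40 and 153 by the authors' totals.

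**Figure D3:**
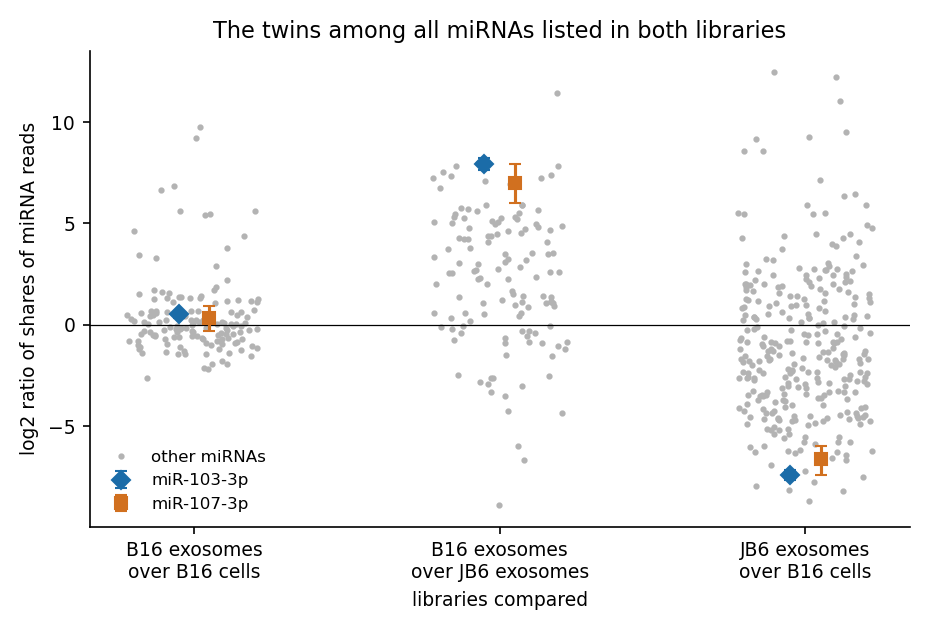
Log2 ratio of shares of miRNA reads in each comparison for the miRNAs with 30 or more reads in the compared libraries together and a listed count in each (grey points), with miR-103-3p and miR-107-3p and their exact 95% intervals for counting error. The members lie near 0 in B16 exosomes over B16 cells (0.52 and 0.33), near the top in B16 exosomes over JB6 exosomes (7.92 and 6.97) and near the bottom in JB6 exosomes over B16 cells (-7.40 and -6.64).

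JB6 exosomes and B16 cells, the libraries with the most reads, formed the last comparison. In JB6 exosomes miR-103-3p was 169-fold lower (143 to 201) and miR-107-3p 99.7-fold lower (63.0 to 169). Both met the rule, 2 of 2, in a comparison where 60.7% of 501 miRNAs were called lower. Among the 305 of these listed in both libraries, they ranked 7 and 11 from the lowest ratio. The ratio stayed under 1 with every scaling tried, from 0.00521 to 0.0354 for miR-103-3p and from 0.00881 to 0.0599 for miR-107-3p. Over all miRNAs, 131 were higher and 304 lower, against 165 and 202 with TMM and 204 and 134 with DESeq2. This comparison shares a library with each of the others, so it is no separate evidence for the level in JB6 exosomes, and it sets vesicles against cells as well as JB6 against B16.

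**Figure D4:**
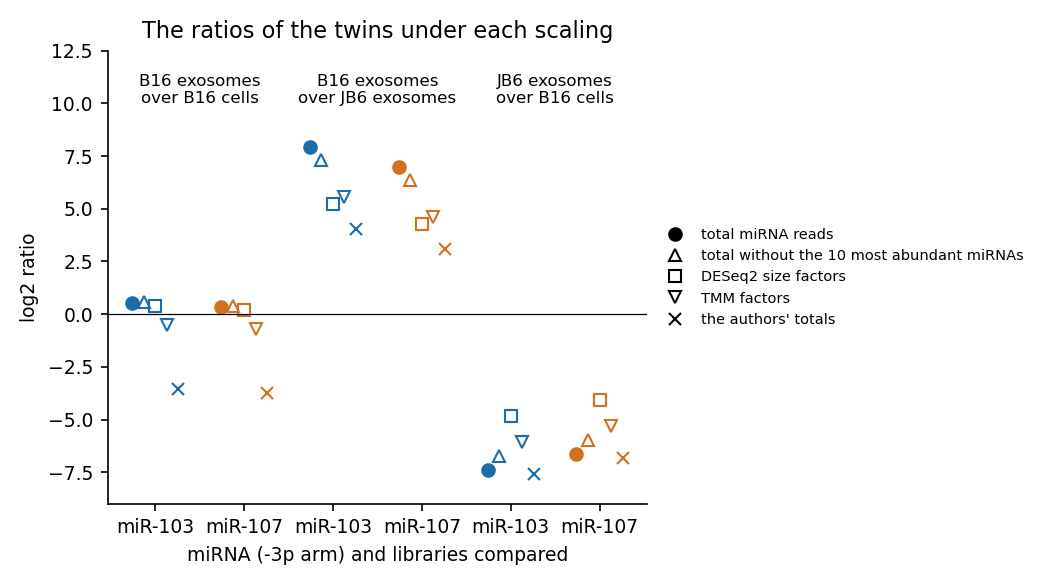
Log2 ratio of miR-103-3p and miR-107-3p in each comparison under 5 scalings. The points change side of 0 only in B16 exosomes over B16 cells, where TMM factors and the authors' totals put both below 0.

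The few JB6 exosome reads were set beside those of B16 cells. Those of miR-103-3p equalled 0.336% of its B16 cell reads and those of miR-107-3p 0.569%. The whole JB6 exosome library held 56.7% as many miRNA reads as the B16 cell library. miR-211-5p, chosen for this after its values were seen, had 21080 reads in B16 cells and a listed 0 in JB6 exosomes, which allows at most 0.0427%. In B16 exosomes the reads of miR-103-3p equalled 0.825% and those of miR-107-3p 0.727% of their B16 cell reads. The whole B16 exosome library held 0.576% as many miRNA reads as the B16 cell library. In B16 exosomes miR-27a-5p, also chosen after its values were seen, had a listed 0 against 10401 reads in B16 cells, which allows at most 0.0865%. The same miRNA had 911 reads in JB6 exosomes, 8.76% of its B16 cell reads. For miR-211-5p the 83 reads in B16 exosomes equalled 0.394%. Both were chosen with their listed 0 known, so these bounds allow no conclusion about the members, and the source of the reads was not tested.

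The 5′ arms of the hairpins, the passenger strands that are mostly degraded, were at a listed 0 in all 3 libraries. Capitals mark the positions at which they differ.
miR-103-1-5p: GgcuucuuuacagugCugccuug
miR-103-2-5p: AgcuucuuuacagugCugccuug
miR-107-5p: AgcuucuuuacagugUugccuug
The difference from miR-103-1-5p to miR-103-2-5p is G1A and that from miR-103-2-5p to miR-107-5p is C16U, counted from the 5′ end. In B16 cells miR-103-3p had at least 4498 times as many reads as either of its 5′ arms, and miR-107-3p at least 352 times as many as miR-107-5p, taking 9 reads for a listed 0. The bounds were 37.1 and 2.56 in B16 exosomes and 15.1 and 2 in JB6 exosomes, where the depth allows little more. Since only the 5′ arms tell Mir103-1 from Mir103-2 and neither was listed, the counts do not say which of the hairpins gave the miR-103-3p reads.

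The miR-15 family, known for restraining the cell cycle, carries the hexamer AGCAGC 1 base later than miR-103-3p and miR-107-3p, so its seed overlaps theirs without being the same. The relatives listed in at least 1 library are shown with the hexamer in capitals.
miR-16-5p: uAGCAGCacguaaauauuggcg
miR-15b-5p: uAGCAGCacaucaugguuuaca
miR-15a-5p: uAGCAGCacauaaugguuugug
miR-195a-5p: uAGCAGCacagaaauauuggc
miR-497a-5p: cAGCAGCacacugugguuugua
miR-503-5p: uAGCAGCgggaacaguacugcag
miR-322-5p: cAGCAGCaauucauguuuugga
In all, 13 of the 1623 matched entries, 0.801%, held AGCAGC within bases 1 to 8, and 4, 5 and 9 of the 13 were listed in B16 exosomes, JB6 exosomes and B16 cells. miR-103-3p and miR-107-3p gave 72.6% of the reads of these entries in B16 exosomes (68.4 to 76.5), 36.8% in JB6 exosomes (32.1 to 41.6) and 73.2% in B16 cells (72.8 to 73.5). The largest remaining part was miR-16-5p, the most abundant relative, with 25% in B16 exosomes (21.2 to 29.1), 56.8% in JB6 exosomes (51.9 to 61.6) and 16.03% in B16 cells (15.7 to 16.3). The JB6 exosome library was thus the only 1 of the 3 in which miR-16-5p had more reads than the pair.

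miR-16-5p had 123 reads in B16 exosomes, 238 in JB6 exosomes and 9558 in B16 cells. There were 2.72 reads of miR-103-3p per read of miR-16-5p in B16 exosomes, 0.571 in JB6 exosomes and 4.24 in B16 cells. Against JB6 exosomes this quotient was 4.75-fold higher in B16 exosomes (3.50 to 6.45), and against B16 cells it was 1.56-fold lower in B16 exosomes (1.26 to 1.93) and 7.41-fold lower in JB6 exosomes (5.97 to 9.23). For miR-107-3p the same quotient was 2.47-fold higher in B16 exosomes than in JB6 exosomes (1.22 to 5.05), 1.77-fold lower in B16 exosomes than in B16 cells (1.13 to 2.90) and 4.38-fold lower in JB6 exosomes than in B16 cells (2.71 to 7.53). These quotients need no total, and none of their intervals includes 1. Both members were therefore less frequent in JB6 exosomes relative to miR-16-5p as well as relative to all miRNA reads.

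Of the 11 relatives without the pair, 7 had enough reads in B16 exosomes against B16 cells. miR-16-5p was higher at 2.23-fold (1.85 to 2.67), miR-15b-5p, with 12 reads in B16 exosomes and 3848 in B16 cells, was not called at a ratio of 0.541 (0.279 to 0.946), and the other 5 had a listed 0 in B16 exosomes that the depth could not resolve. By the same totals 16.4% of all 422 miRNAs with enough reads were called higher or lower. Here too the scaling decided. With TMM the ratio of miR-16-5p was 1.10 and miR-15b-5p was called lower, where 93 of the 422 were lower. With DESeq2 size factors miR-15b-5p was also called lower, at 0.496. Under the authors' totals 0 relatives were higher and 6 lower, where 257 of the 422 were lower. Against JB6 exosomes only miR-16-5p had enough reads, and it was 50.9-fold higher in B16 exosomes (40.6 to 63.5), where 31.3% of all miRNAs with enough reads were higher. That ratio was 9.86 with TMM, 7.80 with DESeq2 size factors and 3.43 under the authors' totals. In JB6 exosomes against B16 cells 7 of 7 were lower, where 60.7% of all miRNAs with enough reads were. With DESeq2 size factors 6 were, without miR-322-5p, where 134 of all 501 were. For the 3 relatives listed in both libraries the median log2 ratio was -5.18, against -1.47 over the 305 miRNAs with enough reads listed in both. The other relatives tested had a listed 0 in JB6 exosomes, taken as 9 reads. miR-16-5p was 22.8-fold lower in JB6 exosomes (20.03 to 26.02), a smaller difference than for miR-103-3p and miR-107-3p, whereas miR-15b-5p, with 10 reads in JB6 exosomes, was 218-fold lower. With TMM these were 8.94-fold and 85.7-fold lower, and with DESeq2 size factors 3.81-fold and 36.5-fold.

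The balance of miR-103-3p and miR-107-3p was set beside that of other pairs of close family members, such as miR-26a-5p and miR-26b-5p. In B16 exosomes against B16 cells the change of balance, 0.18 on the log2 scale, was the second smallest of 15 pairs with all 4 counts listed, rank 2. The other 14 pairs moved by 0.08 to 4.77, with a median of 0.84, and the intervals of 11 of the 14 excluded 1. The balances of miR-181a-5p over miR-181b-5p and let-7b-5p over let-7c-5p also moved little, by -0.08 and -0.27, while those of miR-99a-5p over miR-100-5p, miR-148a-3p over miR-148b-3p and miR-30b-5p over miR-30c-5p moved most, by -4.77, 3.69 and 2.67. That of miR-221-3p over miR-222-3p moved by -0.28.

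Against JB6 exosomes the change of 0.94 in B16 exosomes ranked 6 of 15, with the other 14 between 0.13 and 10.4 and a median of 1.48. The pairs that moved least were miR-125a-5p with miR-125b-5p, miR-30a-5p with miR-30e-5p and let-7a-5p with let-7c-5p, at 0.13, -0.33 and -0.46. Those that moved most were miR-148a-3p with miR-148b-3p, miR-23a-3p with miR-23b-3p and miR-30b-5p with miR-30c-5p, at -10.4, -4.34 and 3.37. In JB6 exosomes against B16 cells the change of -0.76 ranked 7 of 18, with the other 17 between 0.14 and 14.1 and a median of 1.96. There miR-10a-5p with miR-10b-5p, let-7a-5p with let-7c-5p and miR-27a-3p with miR-27b-3p moved least, at 0.14, -0.30 and 0.35. miR-148a-3p with miR-148b-3p, miR-196a-5p with miR-196b-5p and miR-99a-5p with miR-100-5p moved most, at 14.1, 13.1 and -5.62. The intervals of 12 of 14 and 16 of 17 other pairs excluded 1 in these comparisons, which share libraries and differ in the reads behind each pair.

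**Figure D5:**
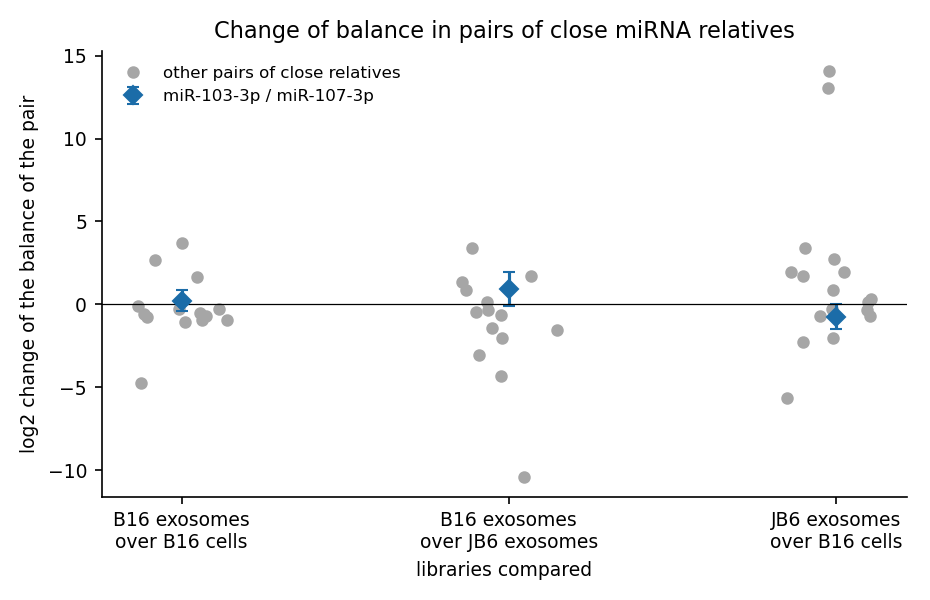
Log2 change of the balance between close family members in each comparison, for miR-103-3p over miR-107-3p with its exact 95% interval for counting error and for 14, 14 and 17 other pairs (grey points). The miR-103-3p and miR-107-3p pair lies at 0.18, 0.94 and -0.76, and other pairs reach 14.1.

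The miRNAs whose pattern over the 3 libraries was most like that of miR-103-3p were found among 131 others listed above 0 in every library, by the distance between log2 shares centred on their own mean. miR-23b-3p was nearest at 0.11, with 1182 RPM in B16 exosomes, 5.12 RPM in JB6 exosomes and 923 RPM in B16 cells. miR-30b-5p (0.42), miR-106b-5p (0.58), miR-107-3p (0.71) and miR-652-3p (0.90) came next. For miR-107-3p the nearest were miR-106b-5p (0.21), miR-132-3p (0.28), miR-652-3p (0.34), miR-26b-5p (0.59) and miR-103-3p (0.71). Each member was thus among the 5 nearest patterns of the other, at rank 4 and rank 5. With 3 libraries the pattern holds few values, and most of these neighbours had 15 to 30 reads in JB6 exosomes.

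Another abundant miRNA from an intron of a metabolic gene was not called lower in JB6 exosomes by total miRNA reads. miR-378a-3p, from an intron of Ppargc1b, a coactivator of energy metabolism, had 999 reads in B16 exosomes, 51099 in JB6 exosomes and 168291 in B16 cells. Its share in B16 exosomes was 1.92 times that in JB6 exosomes (1.81 to 2.05) and 1.03 times that in B16 cells (0.967 to 1.10), and its share in JB6 exosomes was 0.535 times that in B16 cells (0.530 to 0.541). It was not called in any of the 3 comparisons by total miRNA reads. With TMM factors it was 2.68-fold lower in B16 exosomes than in JB6 exosomes, and with DESeq2 size factors 3.39-fold lower, while miR-103-3p and miR-107-3p stayed higher. In JB6 exosomes against B16 cells its ratio was 3.20 with DESeq2 size factors, which would call it higher, and 0.471 under the authors' totals, which would call it lower. Its 5′ partner miR-378a-5p had a listed 0 in B16 exosomes, 11 reads in JB6 exosomes and 1154 in B16 cells. miR-33-5p and miR-33-3p, from an intron of the sterol regulator Srebf2, had 61 and 34 reads in B16 cells and a listed 0 in both exosome libraries. Of the 6 entries of this list, miR-103-3p and miR-107-3p included, 0 were called in B16 exosomes against B16 cells, where 16.4% of all miRNAs with enough reads were. Under the authors' totals 4 were lower, where 257 of all 422 were. Against JB6 exosomes 2 of 3 with enough reads were higher, the members themselves, where 31.3% of all were. In JB6 exosomes against B16 cells 5 of 6 were lower, where 60.7% of all were. With TMM or DESeq2 that count was 3, since the miR-33 arms were no longer resolved, and under the authors' totals it was 6. Of all 501 miRNAs, 202 were lower with TMM, 134 with DESeq2 and 325 under the authors' totals.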

How the data were processed

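Small RNA was sequenced in 1 library each of B16 exosomes, JB6 exosomes and B16 cells. bcl2fastq, BWA and mm10 are listed in the submitters' processing notes, and the labels' protocols give ultracentrifugation for the exosomes and Trizol for the RNA. The deposited counts are reads per mature miRNA, not normalized, per the file headers. The deposited RPM is the count over a larger total of the authors (847694, 5626936 and 8721363), whose make-up, like the adapter, strand and multi-mapping settings, the sources used here do not give.

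Shares used total miRNA reads. Intervals are exact (Clopper-Pearson, or conditional for ratios and for changes of balance). Those of ratios of shares were checked on simulated counts. The interval for changes of balance was checked against that of scipy on a made-up set of counts. A listed 0 was set to 9 reads, chosen after the files showed no smaller count. Named miRNAs are the members, their 5′ arms, relatives listed above 0, the 5 nearest patterns of each member and the 3 other pairs that moved most and the 3 that moved least in each comparison. The markers and the miR-378a and miR-33 arms are named as list members outside this rule, and miR-27a-5p was chosen after its values were seen. miR-199a-3p and miR-199b-3p are named for their equal counts. The AGCAGC set was taken by sequence, since the first list held miR-497b, which lacks it and had a listed 0 in B16 exosomes, 18 reads in JB6 exosomes and 127 in B16 cells. Marker lists covered melanocyte, liver, red cell, muscle, leukocyte and epithelial miRNAs. The leukocyte list summed to 0 RPM in B16 exosomes, 7.56 in JB6 exosomes and 0 in B16 cells. Alternatives were TMM (edgeR 4.0.16), DESeq2 1.42.0 size factors, the authors' totals, totals that leave out the 10 most abundant miRNAs, other minimums, a stricter bound and identical entries counted once. Python 3.11.15, scipy 1.17.1 and ViennaRNA 2.7.2 were used. The members and lists were chosen with earlier results of these data known.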

Additional observations from a re-analysis of the deposited data

How the results depend on the processing

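Scaling moved the ratios of miR-103-3p and miR-107-3p and could not move their balance, which was the same from counts and from the authors' RPM in all 3 libraries. In B16 exosomes against B16 cells the ratios were 0.706 and 0.622 with TMM and 0.0849 and 0.0748 under the authors' totals, so their direction depends on the scaling. In B16 exosomes against JB6 exosomes the members stayed higher: miR-103-3p at 46.8 (TMM), 37.1 (DESeq2), 159 (without the 10 most abundant) and 16.3 (authors' totals), miR-107-3p at 24.4 (TMM), 19.3 (DESeq2) and 8.48 (authors' totals). In JB6 exosomes against B16 cells they stayed lower, at 0.0151 and 0.0255 (TMM), 0.0354 and 0.0599 (DESeq2) and 0.00940 and 0.0159 (without the 10 most abundant). Counts over all miRNAs moved by over 1.5 times as follows. In B16 exosomes against B16 cells, 16 were higher and 93 lower with TMM, 9 and 257 by the authors' totals, and 23 and 14 with an interval bound of at least 2-fold, against 36 and 33. Against JB6 exosomes, 61 were higher and 97 lower with TMM, 57 and 109 by DESeq2 size factors and 40 and 153 by the authors' totals, against 94 and 35. In JB6 exosomes against B16 cells, 204 were higher with DESeq2, and 202 were lower with TMM and 134 with DESeq2, against 131 higher and 304 lower. The scalings change only the totals and so move every ratio of a comparison alike, while the interval bound is a stricter rule on the same ratios. Another value for a listed 0 had no bearing on the balance, since neither member had one. Leaving out a library was not possible with 1 per group. No paired analysis was possible because each group holds a single library. The 23 and 18 reads of miR-107-3p in the exosome libraries limit the comparison of the balance.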

Other observations

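Many abundant hairpins of B16 cells had their minor arm listed, unlike the Pank hairpins. Of 53 hairpin names with an arm of 10000 or more reads in B16 cells and both arms named in the tables, 4 had the other arm at a listed 0. These were miR-146a, miR-328, miR-184 and miR-101b, with 24373, 13016, 12170 and 11058 reads of the major arm. miR-103, whose 5′ arms carry hairpin numbers and which stands outside this count, had 40485 reads of the 3′ arm with both 5′ arms at a listed 0. At 3000 or more reads, 11 of 87 names had the other arm at a listed 0, and miR-107 is itself counted among these. The exosome libraries had larger parts of this kind. In JB6 exosomes 8 of 31 names with 10000 or more reads had the other arm at a listed 0. In B16 exosomes it was 14 of 16 names with 300 or more reads. This was counted after the values of the 5′ arms were seen.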
